A study of Mus musculus with 6 samples.

Results

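Poly(A) polymerases and deadenylases, the enzymes that add and remove the adenosine tail of RNA, were read in cells with and without knockdown of the ubiquitin ligase gene RNF11. The 10 genes are TENT5A, TENT5B, TENT5C, TENT2, TENT4A, TENT4B, PAPOLA, CNOT6, CNOT7 and PAN2, found by symbol among 20499 listed genes, and all 10 had enough reads to be tested. TENT5B was selected on its fold change between these groups. The other 9 were chosen by the family they belong to, with results of the same comparison known, so the values of all 10 are a description. The labels give AML12, an immortalized hepatocyte line of mouse, in 2 groups of 3 libraries. Cells labelled shControl carried a control lentivirus and the genotype WT, and those labelled shRNF11 a lentivirus against RNF11. Both groups had spent 6 h at 1% oxygen without glucose and serum, then went to normal air in complete medium with 10% serum, insulin, transferrin, selenium and dexamethasone at 40 ng/mL. The sources used here give neither the time in normal air before harvest nor the hairpin sequences. All 6 libraries came from cells treated in this way, so the effect of hypoxia itself cannot be read here.

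Most messenger RNAs receive their tail in the nucleus from the canonical polymerase PAPOLA, working with the cleavage and polyadenylation factors. Non-canonical polymerases of the TENT family extend or modify tails later, in the nucleus or the cytoplasm, and the deadenylase complexes PAN2-PAN3 and CCR4-NOT shorten them, which is the usual first step of mRNA decay. Read counts of these genes measure the amount of their own transcripts, not the length of any tail or the activity of any enzyme.

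Library depth, as the sum of reads counted on the listed genes, was 37485850 to 39045440 reads. RNF11 had 2050, 1926 and 1930 reads in shControl and 573, 565 and 599 in shRNF11, so the libraries matched their knockdown labels. Species and cell type did not match in the same way. The table carries human symbols and Entrez numbers although the labels say mouse: 0 of its 20499 Entrez numbers are in the mouse RefSeq table, those of the 10 genes included. Of 16 hepatocyte markers 11 were listed, none (0) had enough reads to test, and their summed level was 0.263 to 0.805 CPM (reads per 1000000 of the scaled library total) over the 6 libraries. Whether the libraries came from mouse hepatocytes, as labelled, or from human cells is therefore in doubt, and the genes below are read as the human genes that the table names. Among 6 epithelial markers, 4 were listed and KRT7, KRT8 and KRT18 were tested. CDH1 was listed but had only 29 reads over the 6 libraries, and KRT19 and EPCAM were not listed. The 4 listed markers, nearly all of it keratin reads, summed to 3105 to 3234 CPM in shControl and 3773 to 3900 CPM in shRNF11. The sum is thus one of keratins, and the part of this shift in the results below was not tested. Fibroblast markers, all 6 of them listed, summed to 67.9 to 91.4 CPM in shControl and 65.0 to 93.2 CPM in shRNF11. That sum hides differences between them. In the group means COL1A2 went from 1.65 to 4.41 CPM and LUM from 1.44 to 3.42 CPM. COL1A1 was lower, at 29.9 and 28.1 CPM, and COL3A1, DCN and PDGFRB were slightly higher. Of 5 leukocyte markers only CD14 was listed, at 0.301 to 0.311 CPM in the group means. Fewer cells of a type and less RNA per cell cannot be told apart in such bulk libraries. The labels do not say that replicates came from separate cultures, so the errors may be technical.

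The TENT5 genes encode non-canonical polymerases that lengthen tails of selected mRNAs, and the 3 of them did not move together. TENT5B (Entrez 115572) had 357, 333 and 380 reads in shControl against 1159, 1169 and 1012 in shRNF11. Every shRNF11 library lay far above every shControl library, with replicate 3 the lowest of its group. Mean expression was 9.24 ± 0.566 CPM in shControl and 29.5 ± 2.44 CPM in shRNF11 (SD, n = 3 each, as for all means below), a 3.19-fold difference with a log2 fold change of 1.67 (standard error 0.0854). This was rank 22 from the top among the fold changes of 13489 tested genes. Leaving out 1 library at a time kept the log2 fold change of TENT5B between 1.63 and 1.75.

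TENT5A (Entrez 55603), which in mouse osteoblasts extends the tails of collagen mRNAs, lay on the other side. Its reads were 2691, 2852 and 2761 in shControl and 2280, 2256 and 2300 in shRNF11, so that all shRNF11 libraries were below all shControl libraries. The means were 71.7 ± 2.47 CPM and 60.4 ± 0.966 CPM, a 1.19-fold lower level (log2 fold change -0.25, standard error 0.0456). The difference kept its sign and its side of the threshold in each alternative scaling, filter and test that was run.

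TENT5C (Entrez 54855) is a gene known for its loss in multiple myeloma and its role in antibody-secreting cells. Among tested genes TENT5C lay in the fifth with the lowest expression. It had 108, 52 and 94 reads in shControl and 55, 58 and 71 in shRNF11. The groups overlapped because shControl replicate 2 was the lowest of all 6 libraries, and the spread within shControl was 34.0% of the mean. At 2.19 ± 0.745 CPM against 1.62 ± 0.217 CPM the log2 fold change was -0.43, with a 95% interval from -0.99 to 0.13, and it did not pass. A single library weighed heavily: the log2 fold change was -0.68 without shControl replicate 2 and -0.22 without shControl replicate 1.

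**Figure D1:**
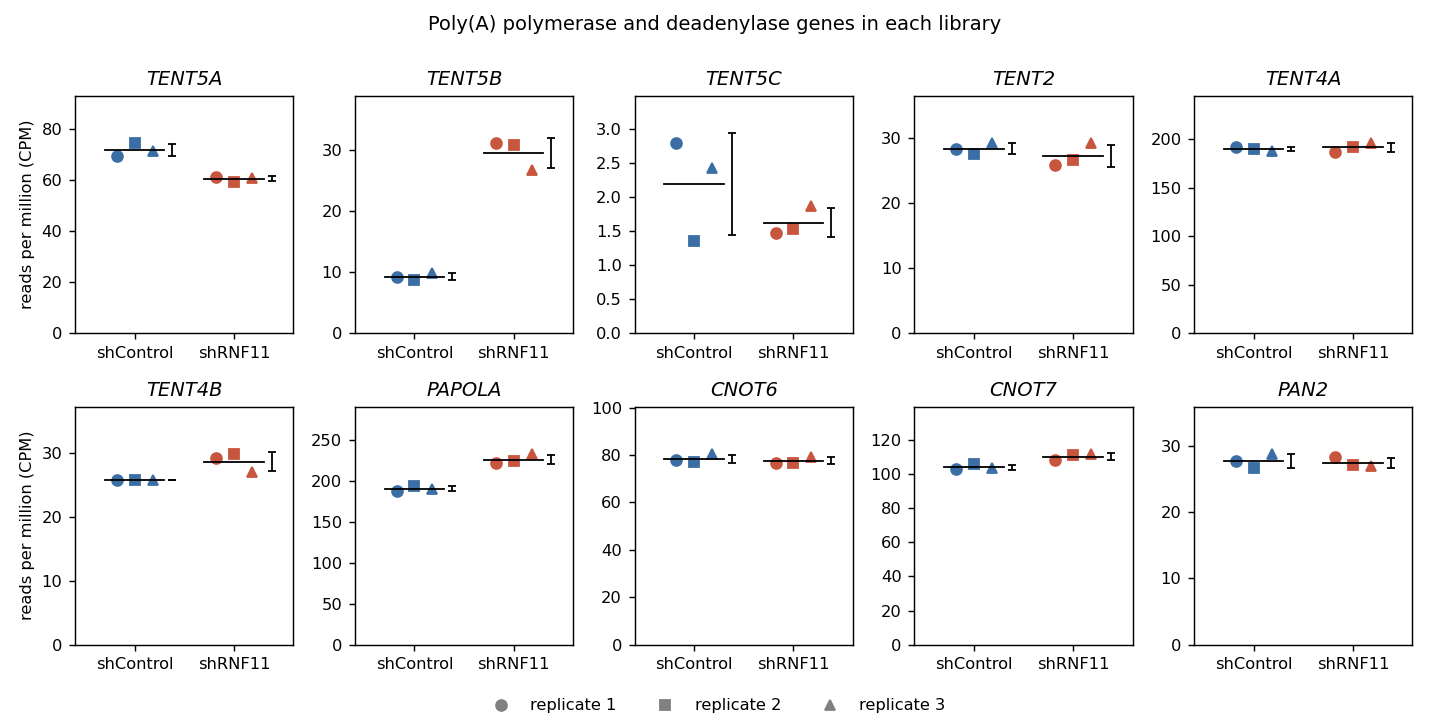
Expression of each of the 10 genes in CPM (vertical axis from 0) in the 3 shControl (blue) and 3 shRNF11 (red) libraries. Symbols mark the replicate number, the horizontal line the group mean and the bar beside it 1 SD. TENT5B goes from 9.24 to 29.5 CPM, TENT5A and PAPOLA differ by less with no overlap, and CNOT6, PAN2, TENT2 and TENT4A overlap between the groups.

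Because these genes were counted in the same library, their division of reads does not depend on the scaling between libraries. TENT5B held 11.3%, 10.3% and 11.7% of the reads of the 3 TENT5 genes in shControl, and 33.2%, 33.6% and 29.9% in shRNF11. The Wilson 95% intervals, which cover counting error only, ran from 9.29% to 12.9% over the shControl libraries and from 28.4% to 35.1% over the shRNF11 libraries. The share of TENT5A went from 86.2% ± 1.62 to 66.0% ± 1.73, and that of TENT5C was 2.64% ± 0.936 and 1.78% ± 0.280. TENT5A thus kept the larger part of the reads in every library of both groups. Transcript lengths were not used here, so a share of reads is not a share of molecules. Summed over the 3 genes, the level had a mean of 83.2 CPM in shControl (81.5 to 84.4 CPM over the libraries) and of 91.5 CPM in shRNF11 (89.2 to 93.7 CPM), so the sum was higher in all shRNF11 libraries although TENT5A was lower in each.

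**Figure D2:**
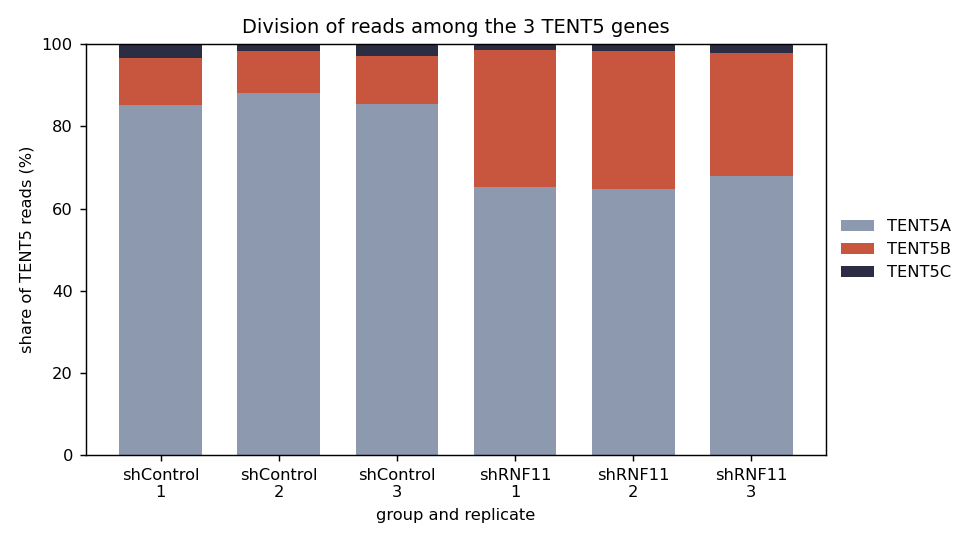
Share of the reads of TENT5A, TENT5B and TENT5C (vertical axis, percent, stacked to 100) in each of the 6 libraries. The TENT5B part (red) takes 10.3% to 11.7% in shControl and 29.9% to 33.6% in shRNF11.

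The other non-canonical polymerases differed little. TENT2 (Entrez 167153), a cytoplasmic polymerase also known as GLD2, had 1092, 1053 and 1128 reads in shControl and 960, 1011 and 1103 in shRNF11. The groups overlapped, since replicate 3 of shRNF11 reached the level of shControl. Its log2 fold change was -0.058, with a 95% interval from -0.19 to 0.076. TENT4A (Entrez 11044) and TENT4B (Entrez 64282) add tails that can include guanosine, and TENT4B also marks nuclear RNA for the exosome. TENT4A had 7448, 7274 and 7258 reads against 6973, 7300 and 7431, or 189.9 ± 2.44 CPM against 191.7 ± 4.47 CPM. Its libraries overlapped, the log2 fold change of 0.014 had a 95% interval from -0.051 to 0.078, and the sign turned with upper-quartile factors (-0.0056) and with library totals alone (-0.050). TENT4B had 996, 985 and 999 reads in shControl, with an SD of 0.231% of their mean after scaling, and 1085, 1132 and 1022 in shRNF11. All shRNF11 libraries lay above, at 28.6 ± 1.47 CPM against 25.7 ± 0.0594 CPM, with replicate 3 the nearest to shControl. The SD in shControl is smaller than counting error alone would usually give at such read numbers, so it overstates the precision. The log2 fold change of TENT4B was 0.15 (95% interval 0.019 to 0.29), which did not pass the threshold after adjustment over all genes except when shRNF11 replicate 3 was left out (log2 fold change 0.20). TENT4B took 11.9% ± 0.152 of the reads of both TENT4 genes in shControl and 13.0% ± 0.782 in shRNF11. These shares overlapped, with shRNF11 replicate 3 at 12.09% and shControl replicate 3 at 12.10%.

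PAPOLA (Entrez 10914), the canonical nuclear polymerase, was higher in shRNF11 by a small and even amount. It had 7287, 7434 and 7347 reads in shControl and 8273, 8519 and 8811 in shRNF11, and the groups were well apart. Mean expression was 190.6 ± 2.93 CPM and 226.1 ± 5.55 CPM, a 1.19-fold difference (log2 fold change 0.25, standard error 0.0314). With library totals alone the log2 fold change was 0.18, still past the threshold. Its close relative PAPOLG, which is also nuclear, had 673, 603 and 624 reads against 531, 530 and 566, so its shRNF11 libraries lay below its shControl libraries. PAPOLG did not pass (log2 fold change -0.19, 95% interval -0.37 to -0.013, edgeR adjusted p = 0.0939). PAPOLA held 92.1% ± 0.484 of the reads of this pair in shControl and 94.0% ± 0.102 in shRNF11. The non-coding gene PAPOLA-DT, named as the divergent transcript of PAPOLA, had 21 to 43 reads per library, few beside those of PAPOLA. Whether counting used strand is not given in the sources.

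The deadenylases were nearly level between the groups. CNOT6 (Entrez 57472) and CNOT7 (Entrez 29883) are catalytic subunits of the CCR4-NOT complex, and PAN2 (Entrez 9924) is that of PAN2-PAN3, which trims long tails. CNOT6 had 3025, 2950 and 3110 reads in shControl and 2865, 2923 and 3007 in shRNF11. Its groups overlapped, and the log2 fold change of -0.015 had a 95% interval from -0.10 to 0.071. CNOT7 had 3985, 4059 and 4008 reads against 4034, 4242 and 4239, which after scaling set all shRNF11 libraries above shControl, at 110.5 ± 1.99 CPM against 104.1 ± 1.55 CPM. Its log2 fold change of 0.086 (95% interval 0.011 to 0.16) did not pass after adjustment and shrank to 0.022 with library totals alone. PAN2 had 1075, 1026 and 1114 reads against 1059, 1033 and 1024, with overlapping groups and a log2 fold change of -0.013 (95% interval -0.14 to 0.12). The intervals of CNOT6, CNOT7 and PAN2 thus leave room for differences of up to 0.16 in size on the log2 scale, and missing the threshold does not show that the levels were equal.

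CNOT6L, the close relative that can take the place of CNOT6 in CCR4-NOT, was lower in shRNF11. It had 1115, 1111 and 1294 reads in shControl and 757, 916 and 955 in shRNF11. All shRNF11 libraries were lower, at 23.2 ± 2.56 CPM against 30.4 ± 2.62 CPM, a 1.31-fold fall (log2 fold change -0.39, standard error 0.0740, edgeR adjusted p = 3.62e-05). CNOT6 accordingly took 72.1% ± 1.31 of the reads of the pair in shControl and 77.0% ± 1.78 in shRNF11, with no overlap between groups. For CNOT7 and its relative CNOT8 the share of CNOT7 was 70.6% ± 0.606 and 72.3% ± 0.299. CNOT8 did not pass (log2 fold change -0.034, 95% interval -0.14 to 0.074), nor did PAN3, the partner subunit of PAN2 (log2 fold change -0.13, 95% interval -0.31 to 0.044). Reads from stretches shared by such relatives may be split between them, and the sources used here do not say how the counting treated them.

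**Figure D3:**
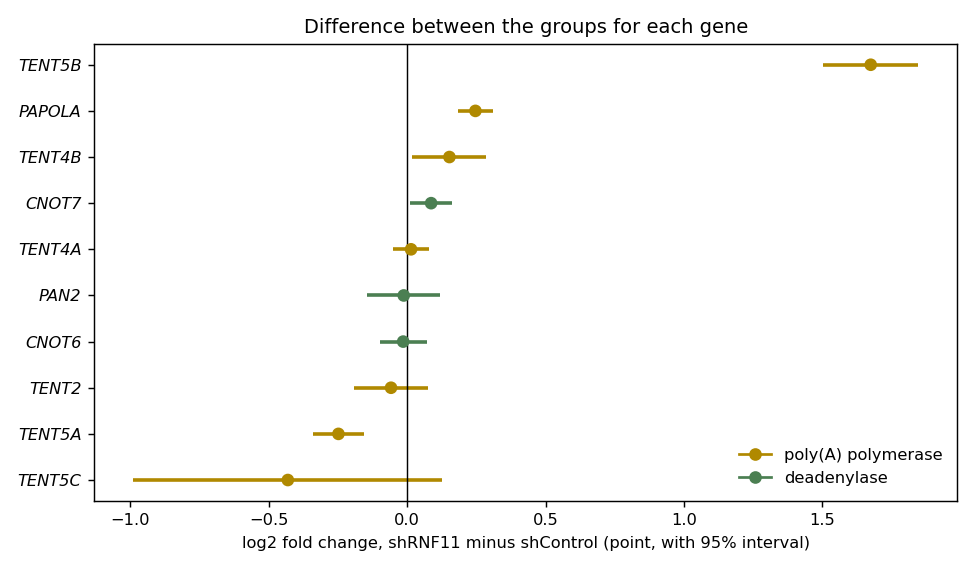
Log2 fold change, shRNF11 minus shControl, of each of the 10 genes (horizontal axis) with its 95% interval, for polymerases (ochre) and deadenylases (green). TENT5B stands at 1.67, PAPOLA at 0.25 and TENT5A at -0.25, and the intervals of the 3 deadenylases run from -0.14 to 0.16.

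Read as a set, the 10 genes had 2 higher (TENT5B and PAPOLA), 1 lower (TENT5A) and 7 that did not pass at an adjusted p under 0.05 in the fit over all genes. Of all tested genes 32.1% passed, 17.4% higher and 14.7% lower in shRNF11. The share among the 10 was 30.0%, near the background, and since the genes were chosen with this comparison known nothing is read from it. Their median log2 fold change was 0.00064, beside -0.0079 over all tested genes. On the scaled CPM levels the groups did not overlap for 5 of the 10, namely TENT5A, TENT5B, TENT4B, PAPOLA and CNOT7. The same held for 42.8% of all tested genes. Overlap was not read under other scalings. Fold changes over all genes followed abundance, with a median of 0.065 and 55.7% passing in the fifth of genes with the highest expression, where PAPOLA, TENT4A and CNOT7 lay. In the fifth with the lowest expression, where TENT5C lay, the median log2 fold change was -0.16 and 9.19% passed. TENT5B was in the fifth at the middle of the order, with a median of -0.023 and 32.3% passing, and TENT5A in the next one up, with a median of 0.0060 and 38.8% passing.

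**Figure D4:**
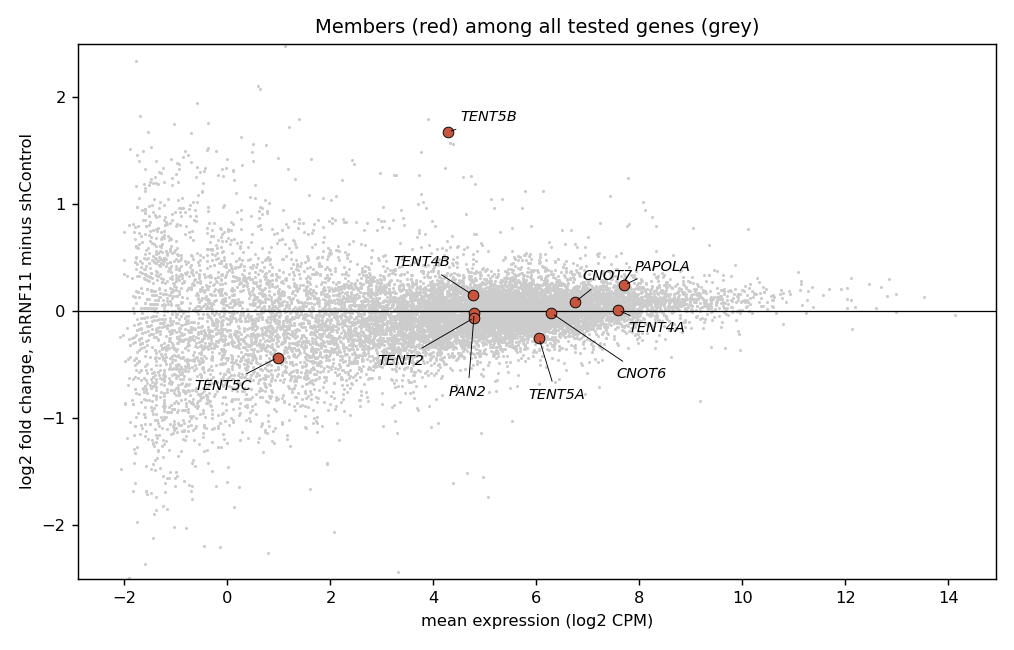
Log2 fold change, shRNF11 minus shControl, against mean expression in log2 CPM for all tested genes (grey), with the 10 genes in red. TENT5B stands alone above the cloud among the 10, while 8 of the other 9 lie between -0.25 and 0.25 and TENT5C at -0.43. 17 genes lie outside the vertical limits of 2.5.

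The pattern of TENT5B over the 6 libraries was set against that of 10000 genes whose mean reached 5 CPM, by the distance between log2 profiles each centred on its own mean. The nearest was CDKN1C, a cell cycle inhibitor gene, at a distance of 0.292, with 340, 396 and 435 reads in shControl and 1246, 1173 and 984 in shRNF11. As in TENT5B, replicate 3 was the lowest of the shRNF11 libraries. Next came the metallothionein gene MT1E at 0.307, the sodium channel subunit gene SCNN1A at 0.343, ANGPTL4, which encodes an inhibitor of lipoprotein lipase, at 0.393, and ADPRHL1, named as an ADP-ribosylhydrolase-like gene, at 0.491. ADPRHL1 had 419, 357 and 446 reads in shControl and 1090, 921 and 1006 in shRNF11. Replicate 3 was also the lowest shRNF11 library for ANGPTL4, but not for MT1E, SCNN1A or ADPRHL1. These genes were picked by closeness to TENT5B, so a shared order of replicates follows in part from that choice. The distance of the other 9 enzymes from TENT5B ran from 1.77 for PAPOLA to 2.64 for TENT5C. In the order of distance over the 10000 genes PAPOLA was at place 729, PAN2 at 5232 and TENT5A at 8992. TENT5B was selected on its fold change, so larger distances for enzymes with small differences were fixed by that choice. Since the libraries of the 2 groups stand far apart, this distance weighs chiefly the size of the group difference.

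Other genes of tail metabolism and mRNA decay, in 9 lists without the 10 genes above, moved in both directions and by little. Of 114 tested, 32 were higher, 13 lower and 69 did not pass, a share of 39.5% beside 32.1% of all tested genes, and the median log2 fold change was 0.035. The division into higher and lower rested on the scaling: with library totals alone it was 12 higher and 21 lower, while all tested genes went from 2348 higher and 1988 lower to 1335 and 3255. That scaling moved the median log2 fold change of all tested genes by -0.064.

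Cleavage and polyadenylation factors, which make the end that PAPOLA extends, had 9 of 17 tested genes higher and 1 lower, with a median log2 fold change of 0.094, beside 17.4% higher and 14.7% lower over all tested genes. With library totals alone 4 were higher and 1 lower. CSTF3, a subunit of the cleavage stimulation factor, was 1.30-fold higher at 36.2 ± 2.74 CPM against 27.9 ± 0.549 CPM (edgeR adjusted p = 4.22e-06). CPSF6, part of the factor that guides the choice of cleavage site, was 1.20-fold higher at 138.1 ± 2.52 CPM against 115.3 ± 4.48 CPM (edgeR adjusted p = 1.15e-07). WDR33, which binds the polyadenylation signal, was 1.18-fold higher (edgeR adjusted p = 0.000176) and CPSF1, the scaffold of its complex, 1.12-fold higher (edgeR adjusted p = 0.000733). The 1 lower gene, CSTF2T, chosen after its values were seen, was 1.09-fold lower (edgeR adjusted p = 0.0346), and 0 of the 17 were lower without shControl replicate 1, shControl replicate 2, shRNF11 replicate 1 or shRNF11 replicate 3. Of the 17 genes 7 lay in the fifth with the highest expression, where 55.7% of all genes passed.

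Poly(A)-tail binding proteins and their partners had 6 of 11 tested genes higher and 1 lower, with a median log2 fold change of 0.081, beside 17.4% higher and 14.7% lower over all tested genes. With library totals alone 2 were higher and 2 lower. Here 7 of the 11 were in the fifth with the highest expression, where 55.7% of all genes passed. LARP4, which binds and protects tails, was 1.29-fold higher at 201.8 ± 11.7 CPM against 156.5 ± 2.49 CPM (edgeR adjusted p = 3.35e-12). PABPC1, the main cytoplasmic tail-binding protein, was 1.12-fold higher at 1044 ± 17.1 CPM against 930.3 ± 3.56 CPM (edgeR adjusted p = 4.99e-08). LARP1, which binds mRNAs of the translation machinery, was 1.06-fold higher (edgeR adjusted p = 0.00655), a call lost with library totals alone (adjusted p = 0.599). PABPC1L, a relative of PABPC1 known from oocytes, was the lower one, 1.33-fold (edgeR adjusted p = 0.000652), and reads may be split among the genes of this family.

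Deadenylases and family relatives outside the 10 gave 2 of 9 tested genes lower and 0 higher, a share of 22.2% that is below the 32.1% of all tested genes. Besides CNOT6L this was ANGEL1, of the same nuclease family, 1.18-fold lower at 34.2 ± 1.74 CPM against 40.5 ± 1.05 CPM (edgeR adjusted p = 0.000849). Of 5 other terminal nucleotidyltransferases tested, 0 passed in edgeR, DESeq2 or limma-voom, and 1, PAPOLG, had an unadjusted p under 0.05. With library totals alone 1 of the 5 was lower.

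Scaffold and regulatory subunits of CCR4-NOT had 3 of 8 higher and 0 lower, a share of 37.5% that is near the 32.1% of all tested genes, and none (0) either way with library totals alone. CNOT9 was 1.11-fold higher (edgeR adjusted p = 0.00212), the scaffold CNOT1 1.07-fold (edgeR adjusted p = 0.00583) and the ubiquitin ligase subunit CNOT4 1.14-fold (edgeR adjusted p = 0.0301). Without shControl replicate 2 only 1 of these calls, that of CNOT9, was made, and the call on CNOT4 was also lost without shControl replicate 3 (adjusted p = 0.0762) and without shRNF11 replicates 1 (0.0670) or 3 (0.0951), and with upper-quartile factors (0.0535).

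Proteins that bring deadenylases to chosen mRNAs had 5 of 21 higher and 4 lower, a share of 42.9% beside 32.1% of all tested genes. ZFP36, which binds AU-rich elements, was 1.58-fold higher at 6.55 ± 0.656 CPM against 4.14 ± 1.21 CPM (log2 fold change 0.66, edgeR adjusted p = 0.00119), with 123, 143 and 213 reads in shControl and 270, 226 and 245 in shRNF11. Its relative ZFP36L1 was 1.15-fold higher (edgeR adjusted p = 7.7e-06), the microRNA silencing factor TNRC6B 1.27-fold (edgeR adjusted p = 0.00104) and the antiproliferative adaptor TOB2 1.15-fold (edgeR adjusted p = 0.00092). Among the lower genes, BTG2, an antiproliferative adaptor chosen after its values were seen, was 1.48-fold lower (edgeR adjusted p = 0.0093).

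Downstream of deadenylation, the exosome and its adaptors had 4 of 21 tested genes higher and 3 lower, and 0 higher and 5 lower with library totals alone. The share of 33.3% is near the 32.1% of all tested genes. ZFC3H1, an adaptor for nuclear polyadenylated RNA, was 1.21-fold lower (edgeR adjusted p = 4.47e-05), and the ring subunits EXOSC6 and EXOSC9 were 1.17-fold and 1.14-fold lower (edgeR adjusted p = 0.000563 and 0.00178), while EXOSC7 was 1.15-fold higher (edgeR adjusted p = 0.00341), a call lost with library totals alone (0.0518). Decapping and the decay that follows it had 5 of 19 higher and 1 lower, 2 and 4 with library totals alone, and its share of 31.6% is also near that background. DCP2, the decapping enzyme, was 1.40-fold higher at 12.1 ± 1.66 CPM against 8.63 ± 0.717 CPM (edgeR adjusted p = 0.000602). LSM2 and LSM7, of the ring that binds deadenylated mRNAs, were both 1.14-fold higher (edgeR adjusted p = 0.0011 and 0.0118), and XRN1, the exonuclease that follows decapping, was 1.13-fold lower (edgeR adjusted p = 0.0135). The count of 6 fell to 3 without shControl replicate 1, shControl replicate 2 or shRNF11 replicate 2. The LSM7 call was lost without shControl replicate 1 (adjusted p = 0.0586) or shRNF11 replicate 2 (0.0775), and that of XRN1 without shControl replicate 2 (0.0982) or shRNF11 replicate 2 (0.0605).

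Of 3 proteins known to bind TENT5 enzymes, FNDC3A was 1.09-fold lower at 84.3 ± 1.13 CPM against 91.8 ± 3.52 CPM (edgeR adjusted p = 0.018). That call was lost without shControl replicate 3 (adjusted p = 0.147) or shRNF11 replicate 2 (0.0699). FNDC3B and BCCIP did not pass, with log2 fold changes of 0.036 and 0.00014. The share of 33.3% is near the 32.1% of all tested genes. All 3 lay in the fifth with the highest expression, where 55.7% of all genes passed.

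**Figure D5:**
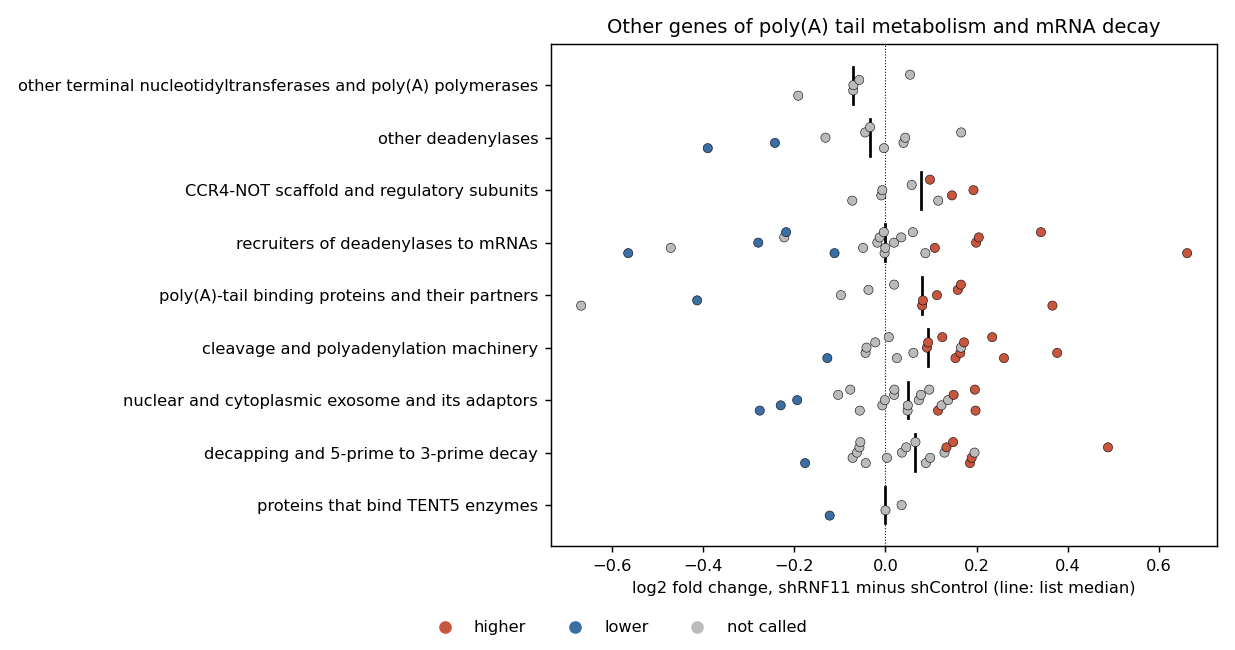
Log2 fold change, shRNF11 minus shControl, of each tested gene (points) of 9 lists of tail metabolism and mRNA decay, with the list median as a black line. Red points were higher, blue points lower and grey points did not pass at an adjusted p under 0.05. Red points number 9 of 17 among the cleavage factors and 6 of 11 among the tail-binding proteins, beside 17.4% of all tested genes, and 7 genes of each list lie in the fifth with the highest expression, where 55.7% passed in either direction. With library totals alone these counts are 4 and 2.

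The table's own annotation groups the 10 genes much as their names do. Polynucleotide adenylyltransferase activity is given to TENT5B, TENT5C, TENT2, TENT4A, TENT4B and PAPOLA, among 9 genes of the table that carry it. TENT5A is among the 3 TENT5 genes annotated with RNA adenylyltransferase activity and with mRNA stabilization, terms held by 5 and 28 genes of the table. CNOT6, CNOT7 and PAN2 share poly(A)-specific ribonuclease activity with 13 genes in all.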

How the data were processed

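The 6 libraries, 3 per group, started from total RNA and are grouped and numbered by the sample titles. The authors deposited raw read counts per gene, not normalized. The submitters' processing notes list fastp, HISAT2 and HTSeq, with no version or role. RNA was isolated with TRIzol and libraries came from the VAHTS Universal V10 kit, per the labels' protocols. Genome build, annotation, strand setting and any selection of polyadenylated RNA are not given in the sources. Only mouse reference sequences were at hand, so no coordinates or sequences are printed. No row lacks a gene name.

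Genes were kept by filterByExpr (minimum count 10), scaled with TMM factors (0.975 to 1.02) and compared with edgeR's quasi-likelihood test (edgeR 4.0.16, R 4.3.3), with no term but group, and the 2-sided p-values underwent Benjamini-Hochberg adjustment over 13489 genes. A standard error is the size of the log2 fold change over the square root of F, and 95% intervals use the fit's degrees of freedom. The code of the fit was run on simulated counts with the same spread setting for all genes, which is simpler than these data. That run checks the code and not the calls made here. Replicates of a group differed beyond sampling noise (chi-square per gene 3.79 to 5.85, and 21.4 to 23.8 between groups). The median standard error was 0.0711. PCR duplicates cannot be told from separate molecules.

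The genes and lists were chosen with earlier results of these data known. In the lists, 6 of 121 fixed genes had no row and 1 had too few reads, and 3 matched by an older symbol. The genes named are RNF11, the 10 enzymes, up to 4 passing genes of each list with the smallest p, and the 5 genes nearest to TENT5B with a symbol not starting with LOC or with AC, AL or AP plus digits. Others are said to be chosen after their values were seen, or are named as relatives or partners of the 10 enzymes. Alternatives were 3 other scalings, 2 filters, DESeq2 1.42.0, limma-voom (limma 3.58.1), the replicate number as a block, and each library left out. The median over the 10 genes was added to these after seeing the data.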

Additional observations from a re-analysis of the deposited data

How the results depend on the processing

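Under the alternatives, 4336 passing genes became 4037 to 4590 with other scalings, filters and tests, and 3478 to 3978 with 1 library left out. The 3 passing enzymes remained 3 except for 4 without shRNF11 replicate 3, when TENT4B passed. The 45 passing list genes became 33 to 46, and 34 to 43 with 1 library left out. Over all alternatives for the single genes named by rule, 562 values kept direction and side of the threshold, 18 lost the call, 1 gained it and 6 turned sign. Signs turned only for enzymes near zero: TENT4A to -0.0056 with upper-quartile factors and -0.050 with library totals alone, CNOT6 (-0.028 to 0.0025 with 1 library left out) and PAN2 (-0.038 to 0.014). The median log2 fold change of the 10 genes was -0.064 with library totals alone. Same-numbered libraries did not deviate together (correlations 0.021, -0.026 and -0.047), so no pairing by number was seen. With so few libraries per group a weak pairing could be missed. With the replicate block 4399 genes passed, 3 of the 10 enzymes and 45 of the list genes. Among the 10 enzymes TENT5C had the fewest reads and the largest standard error, 0.278.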

Other observations

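The deposited table assigns 75 genes to the KEGG pathway of RNA degradation, among them TENT4A, TENT4B, CNOT6, CNOT7 and PAN2. Of the 68 others that were tested, 18 were higher and 9 lower in shRNF11 (39.7%, beside 32.1% of all tested genes), with a median log2 fold change of 0.028. This set was chosen after values were seen and shares genes with the lists above. PAPOLA-DT, the non-coding gene beside PAPOLA, did not pass (log2 fold change -0.51, edgeR adjusted p = 0.376).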
